A study of Mus musculus with 6 samples.

Results

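Lis1 (gene Pafah1b1), its partners Nde1 and Ndel1, and the core subunits of cytoplasmic dynein and dynactin form the minus-end-directed motor machinery of the microtubule. Their RNA was followed in GFP-sorted cells of mouse embryos, which the paper calls cortical interneurons (cINs). The 10 genes were taken by name: Pafah1b1, Ndel1, Nde1, Dync1h1, Dync1i1, Dync1i2, Dync1li1, Dync1li2, Dctn1 and Dctn2, out of 29606 loci in the deposited table. Each of the 10 names lay on 1 locus, and 0 of these loci carried a further gene name. RNA came from ganglionic eminences at E13.5, from cells sorted for GFP, so GABAergic cells bound for other regions can be among them. The 3 WT libraries had the genotype Wt/Wt at CCP1 and the 3 CCP1 cKO libraries lox/lox. Both groups carried the Dlx5,6 CRE GFP transgene, and whether its expression differed between them was not tested. That transgene acts in the GABAergic lineage of the ventral forebrain, and recombination removes exons of Agtpbp1, the gene of the deglutamylase CCP1. The strain is labelled MF1 in both groups, while the floxed allele was made in 129S2/SvPas cells and then bred to C57BL/6N mice. Single embryos of separate females are described as the replicates, and p-values measure the spread between these libraries.

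Cytoplasmic dynein is a motor that walks towards microtubule minus ends. Its heavy chain (Dync1h1) holds the motor, while intermediate chains (Dync1i1, Dync1i2) and light intermediate chains (Dync1li1, Dync1li2) bind dynactin and cargo. Dynactin, with its large subunit p150Glued (Dctn1) and dynamitin (Dctn2), makes the motor processive. Lis1 binds the heavy chain and favours its active form, and the paralogs Nde1 and Ndel1 tether Lis1 to the intermediate chain. In migrating neurons dynein at the nucleus and in the leading process pulls on the microtubules that link centrosome and nucleus, and loss of a copy of the human Lis1 gene causes lissencephaly. NDE1 is best known for its role in the mitosis of neural progenitors, where its loss in humans causes microcephaly.

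The values are FPKM, fragments scaled to transcript length and library size, so that levels can be set side by side between genes. Where a genotype is given 3 values, they follow its replicates 1, 2 and 3. Relative depth, read from the steps between values below 0.1 FPKM, lay between 0.72 and 1.14 across libraries, and absolute depth is unknown. Composition differed too: the 10 highest loci held from 13.2% of the summed FPKM in CCP1 cKO replicate 1 to 28.3% in WT replicate 1. Agtpbp1, the targeted gene, read 20.01, 18.9 and 18.1 FPKM in the WT libraries, against 9.68, 10.1 and 9.56 FPKM in those of CCP1 cKO. Its log2 fold change of FPKM + 1 was -0.89 (adjusted p = 0.00449, limma), a call that was lost without CCP1 cKO replicate 3 (adjusted p = 0.0735) and without replicate 1 of both groups (adjusted p = 0.117). The values for Agtpbp1 cover its whole locus. The removed exons were not read separately here, so these values do not measure their loss. Of 7 measured markers of the ventral GABAergic lineage, 7 reached 1 FPKM, and means over the 6 libraries were 148.3 FPKM for Dlx1 and 100.4 FPKM for Lhx6. Progenitor and cell cycle genes were abundant too: 9 of 9 reached 1 FPKM, and their summed level was 714.0 to 777.2 FPKM in WT against 660.7 to 760.6 FPKM in CCP1 cKO. The sorted cells thus held RNA of dividing cells beside that of young neurons, and in such bulk RNA the number of cells of a type and the RNA per cell cannot be told apart. The summed level of progenitor and cell cycle genes includes the locus named Sox2 (mean 168.6 FPKM), which spans 34196475 to 34680879 of chromosome 3. Whether this level is that of Sox2 alone was not tested. Of 5 microglial and 6 endothelial or pericyte markers, 0 reached 1 FPKM, counted like the other markers by the mean over the 6 libraries. The endothelial and pericyte markers summed to 1.52 to 2.87 FPKM in WT against 0.991 to 1.39 FPKM in CCP1 cKO, without overlap. The microglial markers summed to 0.633 to 0.923 FPKM in WT against 0.571 to 0.797 FPKM in CCP1 cKO. The part of these cells in the results was not tested. Among 6 markers of the cortical excitatory lineage, 5 reached 1 FPKM, the highest being Neurod6 with a mean of 6.94 FPKM, and their summed level was 8.96 to 38.0 FPKM in WT against 13.3 to 27.7 FPKM in CCP1 cKO. Of 4 red blood cell markers, 2 lay on loci of their own and both reached 1 FPKM, Hbb-y with a mean of 11.6 FPKM and Hba-x with 1.85 FPKM, and the locus named for both Hba-a1 and its copy Hba-a2 had a mean of 7.90 FPKM. The summed level of Hbb-y and Hba-x was 9.99 to 23.2 FPKM in WT against 5.92 to 19.1 FPKM in CCP1 cKO, and its part in the results was not tested.

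Pafah1b1 was among the abundant transcripts of these cells. It read 87.1, 90.0 and 80.5 FPKM in the WT libraries, against 87.5, 79.0 and 77.8 FPKM in those of CCP1 cKO, and the genotypes overlapped. Its mean over the 6 libraries, 83.6 FPKM, lay above that of 94.5% of the 13200 loci tested. Pafah1b1 occupies 74673949 to 74724384 of chromosome 11 (mm10, minus strand). Lis1 acts as a dimer on the dynein heavy chain, and Pafah1b1 stood at 0.876 to 0.999 times Dync1h1 in FPKM within the libraries, below it in 6 of 6.

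Nde1 and Ndel1, the Lis1 tethers, were expressed at nearly equal levels, both far below Lis1. Nde1 (plus strand of chromosome 16, 14163275 to 14192923) read 20.9, 22.8 and 22.2 FPKM in the WT libraries, against 23.9, 23.2 and 21.2 FPKM in those of CCP1 cKO. Ndel1 (minus strand of chromosome 11, 68821446 to 68853131) read 19.1, 19.2 and 20.2 FPKM in the WT libraries, against 19.8, 18.6 and 19.3 FPKM in those of CCP1 cKO. The annotated gene of Ndel1 reaches on to 68871858, beyond this locus, and whether that moves its level was not tested. Ndel1 was lower than Nde1 in 6 of 6 libraries, at 0.8003 to 0.915 times its level. On the log2 scale of FPKM + 1 the difference within libraries was -0.20 ± 0.080 (± SD over n = 6 libraries; by an exact two-sided sign-flip test p = 0.0313, the smallest that 6 libraries allow, and 0.0313 after Benjamini-Hochberg adjustment over 3 pairs of paralogs). Nde1 thus made up 52.2% to 55.5% of the summed FPKM of both genes. The sum of both was steady, at 40.1 to 43.7 FPKM, and Pafah1b1 exceeded it by 1.89 to 2.18 times.

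The transcripts of these paralogs can be told apart by their sequence. The longest annotated coding sequences of Ndel1 and Nde1 in GENCODE M21 (GRCm38) were identical at 66.4% of 995 aligned bases, with no identical run above 18 bases. The 60 bases at which they are most alike are printed because they show how often even there a fragment meets a difference. Capitals mark the 11 bases that differ, and positions are counted from the start codon, 316 to 375 in Ndel1 and 313 to 372 in Nde1.
Ndel1: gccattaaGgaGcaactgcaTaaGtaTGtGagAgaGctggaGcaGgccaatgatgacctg
Nde1: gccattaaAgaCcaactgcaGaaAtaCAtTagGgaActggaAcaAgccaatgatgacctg
The annotated exons of Nde1 share 77 bases, or 2.40% of its exonic bases, with Marf1 on the opposite strand. The library kit keeps strand, but the sources used here do not state whether fragments were counted by strand.

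**Figure D1:**
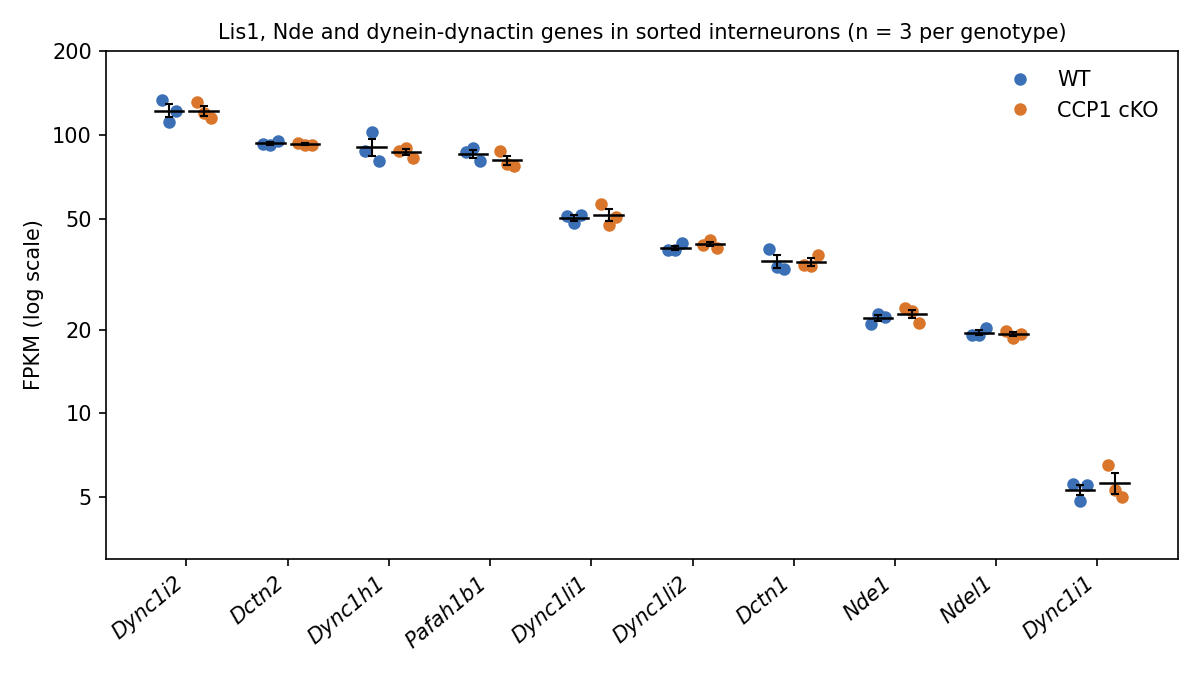
FPKM (y axis, log scale) of the 10 genes (x axis) in each of the 3 WT (blue) and 3 CCP1 cKO (orange) libraries, with the mean (line) and SEM (bars). Means over the 6 libraries span from 122.5 FPKM for Dync1i2 to 5.45 FPKM for Dync1i1, and the genotypes overlap for each gene.

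Dync1h1, the heavy chain and motor subunit, was expressed at about the level of Lis1. It read 87.8, 102.8 and 80.8 FPKM in the WT libraries, against 87.6, 90.0 and 82.9 FPKM in those of CCP1 cKO, with the highest and the lowest value both in WT. The locus (plus strand of chromosome 12, 110601390 to 110682619) ends 15674 bases beyond the annotated gene, and it shares 403 exonic bases with Gm35558 on the opposite strand. Whether these features move its level was not tested.

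RNA of the intermediate chains, which dock dynactin and Nde1 or Ndel1, came nearly all from Dync1i2. Dync1i2 (plus strand of chromosome 2, 71211706 to 71263302), the form known from dividing and non-neuronal cells as well as neurons, read 133.8, 111.2 and 122.3 FPKM in the WT libraries, against 131.7, 120.4 and 115.4 FPKM in those of CCP1 cKO. It was the most abundant of the 10 genes in 6 of 6 libraries. Dync1i1 (plus strand of chromosome 6, 5725639 to 6028477), the form known from neurons, read 5.54, 4.84 and 5.53 FPKM in the WT libraries, against 6.53, 5.31 and 4.98 FPKM in those of CCP1 cKO, the lowest of the 10 genes in every library. Dync1i2 exceeded Dync1i1 by 20.2 to 24.1 times, and Dync1i1 made up 3.98% to 4.73% of the summed FPKM of the pair. The difference within libraries was 4.26 ± 0.073 on the log2 scale of FPKM + 1 (± SD over n = 6 libraries; by an exact two-sided sign-flip test p = 0.0313, adjusted 0.0313). The pair summed to 116.0 to 139.4 FPKM, or 1.13 to 1.59 times Dync1h1.

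The longest annotated coding sequences of Dync1i2 and Dync1i1 were identical at 73.7% of 1887 aligned bases, and the longest identical run had 17 bases. Their most similar 60 bases, positions 1124 to 1183 of Dync1i2 and 1148 to 1207 of Dync1i1, differ at 8 bases, given in capitals, and are shown because these 2 genes lie furthest apart in level.
Dync1i2: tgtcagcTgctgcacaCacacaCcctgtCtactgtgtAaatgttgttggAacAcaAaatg
Dync1i1: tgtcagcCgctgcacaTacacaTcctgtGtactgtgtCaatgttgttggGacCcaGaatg

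The light intermediate chains, through which dynein binds most of its cargo adaptors, were both well expressed. Dync1li1 (plus strand of chromosome 9, 114688831 to 114723777) read 51.4, 48.2 and 51.8 FPKM in the WT libraries, against 56.5, 47.4 and 50.9 FPKM in those of CCP1 cKO. Dync1li2 (minus strand of chromosome 8, 104417360 to 104443059) read 38.7, 38.7 and 40.8 FPKM in the WT libraries, against 40.3, 42.1 and 39.4 FPKM in those of CCP1 cKO. Dync1li2 was lower in 6 of 6 libraries, at 0.713 to 0.887 times Dync1li1, and the difference within libraries was -0.34 ± 0.10 on the log2 scale of FPKM + 1 (± SD over n = 6 libraries; by an exact two-sided sign-flip test p = 0.0313, adjusted 0.0313). Their sum came close to the heavy chain, at 0.845 to 1.15 times Dync1h1. Those of Dync1li2 and Dync1li1 were identical at 70.2% of 1467 aligned bases, with no identical run above 15 bases. The annotated exons of Dync1li2 share 427 bases, or 7.08% of its exonic bases, with the antisense gene K230015D01Rik.

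**Figure D2:**
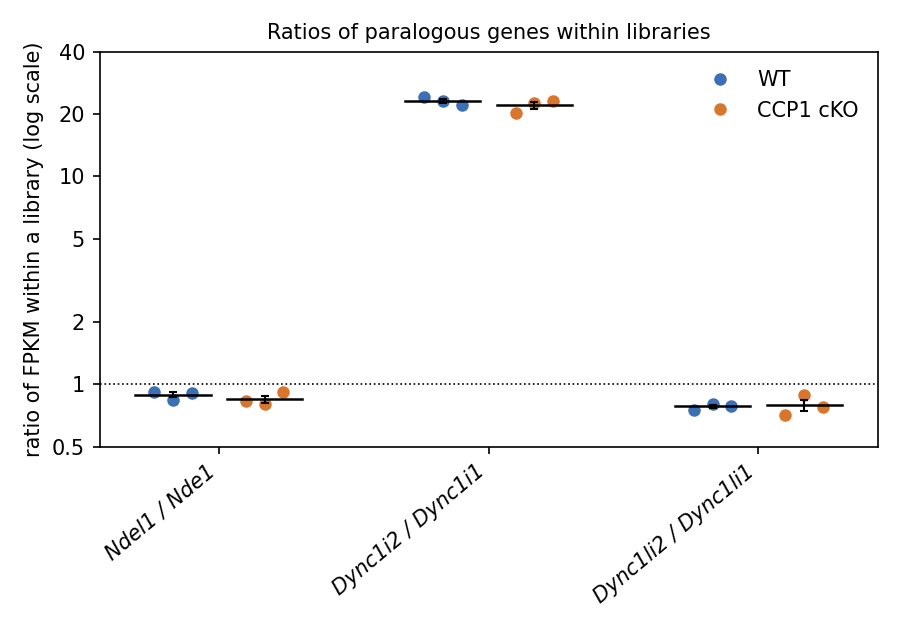
Ratio of FPKM within each library (y axis, log scale) for the 3 pairs of paralogs (x axis), with the mean (line) and SEM (bars) of 3 WT (blue) and 3 CCP1 cKO (orange) libraries; the dotted line marks equal levels. Ndel1 / Nde1 and Dync1li2 / Dync1li1 lie below 1 in 6 of 6 libraries, and Dync1i2 / Dync1i1 lies between 20.2 and 24.1.

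The dynactin subunits differed in level. Dctn2, whose product dynamitin joins the shoulder of dynactin to its filament, read 92.6, 92.0 and 95.5 FPKM in the WT libraries, against 94.1, 92.3 and 91.9 FPKM in those of CCP1 cKO, the smallest relative spread of the 10 genes (coefficient of variation 1.56% over 6 libraries). Dctn1, which holds the microtubule-binding and dynein-binding arm, read 38.8, 33.7 and 33.1 FPKM in the WT libraries, against 34.0, 33.9 and 37.1 FPKM in those of CCP1 cKO. Dctn2 exceeded Dctn1 by 2.39 to 2.88 times. Dctn2 lies on the plus strand of chromosome 10 from 127266262 to 127288963, and Dctn1 on the plus strand of chromosome 6 from 83165745 to 83200218. The locus of Dctn2 ends 7013 bases beyond the annotated gene, and whether that moves its level was not tested.

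In the mean of the 6 libraries the order was Dync1i2, Dctn2, Dync1h1, Pafah1b1, Dync1li1, Dync1li2, Dctn1, Nde1, Ndel1 and Dync1i1, over a range of 22.4 times. Of the 9 steps between neighbours, 7 held in 6 of 6 libraries. The step from Dctn2 (93.1 ± 1.45 FPKM) to Dync1h1 (88.6 ± 7.73 FPKM, mean ± SD over n = 6 libraries) held in 5 of 6 libraries and was smaller than the spread of Dync1h1. That from Dync1li2 (39.98 ± 1.32 FPKM) to Dctn1 (35.1 ± 2.30 FPKM) also held in 5 of 6 libraries and was larger than both SDs, the exception being WT replicate 1 with 38.7 and 38.8 FPKM. The range of Dync1h1 (80.8 to 102.8 FPKM) also overlapped that of Pafah1b1 (77.8 to 90.0 FPKM), although Pafah1b1 was the lower of the pair within each library. The coefficient of variation of the 10 genes over the 6 libraries ran from 1.56% to 11.01%, against a median of 8.06% over loci averaging 5 FPKM or more, and 8 of the 10 genes were below that median. The loci behind that median were not matched to the 10 genes in level, so a small spread is not shown to be particular to them.

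To ask whether loss of CCP1 went with a change of the motor machinery, limma was fitted to log2(FPKM + 1) of the 13200 loci that averaged 1 FPKM or more. None of the 10 genes was detected as changed: 0 passed an adjusted p of 0.05, where 0.0909% of all loci tested passed, and 0 had an unadjusted p under 0.05, where 4.62% of all loci did. The genotypes did not overlap for 0 of the 10 genes, against 9.80% of all loci. The 10 log2 fold changes had a median of -0.0021, and that over all loci tested was -0.018; 5 were above and 5 below 0.

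Pafah1b1 had the largest of these differences. Its mean ± SEM over n = 3 libraries was 85.9 ± 2.81 FPKM in WT, against 81.4 ± 3.07 FPKM in CCP1 cKO, or 94.8% of WT, with a log2 fold change of -0.077 (95% interval -0.26 to 0.10; adjusted p = 0.976, limma). By a two-sided exact permutation test of the means its p was 0.3, where 3 against 3 libraries allow none below 0.1. Dync1i1, at 5.30 ± 0.234 FPKM in WT against 5.61 ± 0.472 FPKM in CCP1 cKO, had the widest interval, -0.20 to 0.32 around a log2 fold change of 0.062. Dync1h1 had a log2 fold change of -0.052 (95% interval -0.29 to 0.18), and its sign turned without WT replicate 2 (0.043). For Nde1 it was 0.048 (95% interval -0.11 to 0.21) and for Ndel1 -0.019 (95% interval -0.15 to 0.12).

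The remaining 5 genes had log2 fold changes within 0.041 of 0. The log2 fold change was 0.0022 for Dync1i2 (95% interval -0.22 to 0.22), 0.029 for Dync1li1 (-0.16 to 0.22), 0.041 for Dync1li2 (-0.095 to 0.18), -0.0065 for Dctn1 (-0.20 to 0.18) and -0.0094 for Dctn2 (-0.15 to 0.13). Exact permutation p-values of the 9 genes other than Pafah1b1 lay between 0.3 and 1. The intervals of the 10 genes together covered -0.29 to 0.32, so a fall of the size seen for Agtpbp1 (-0.89) lies outside each of them, and smaller differences within a gene's interval cannot be told from 0 with 3 libraries per genotype.

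**Figure D3:**
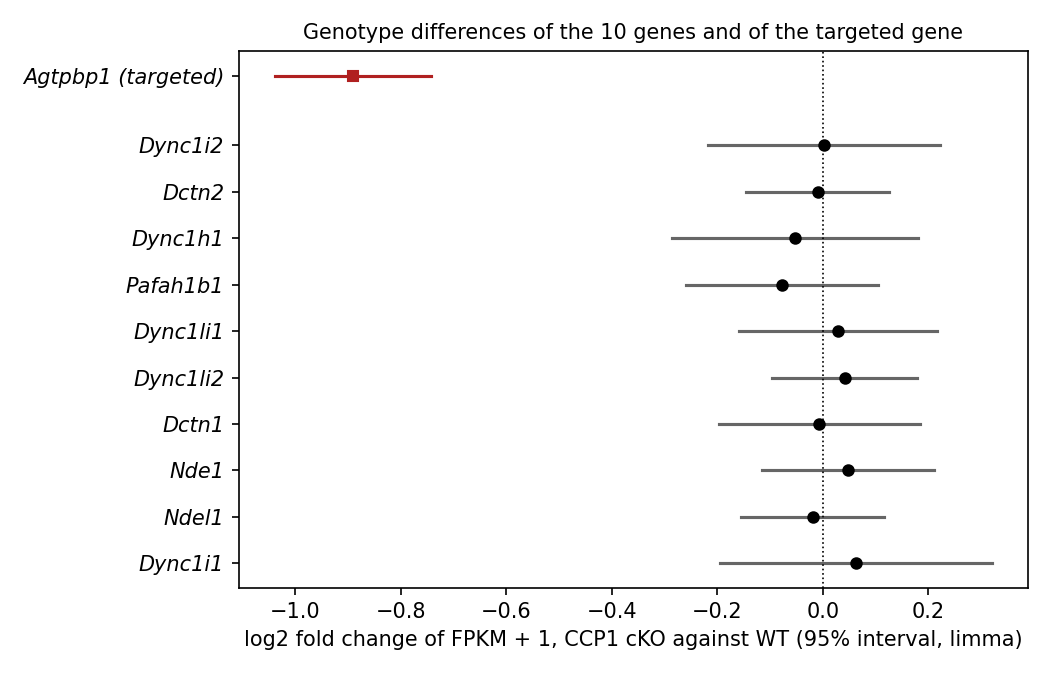
Log2 fold change of FPKM + 1 between CCP1 cKO and WT (x axis) for the 10 genes (black) and for Agtpbp1 (red), with 95% intervals from limma, 3 libraries per genotype; the dotted line marks 0. The 10 intervals include 0 and lie between -0.29 and 0.32, while that of Agtpbp1 lies between -1.04 and -0.74.

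The balance within the pairs of paralogs was not detected as different between genotypes either. The log2 ratio of Ndel1 to Nde1 averaged -0.16 in WT and -0.23 in CCP1 cKO, a difference of -0.067 (two-sided exact permutation test, p = 0.3, adjusted 0.9 over 3 pairs). That of Dync1i2 to Dync1i1 averaged 4.29 in WT and 4.23 in CCP1 cKO (difference -0.060, exact permutation p = 0.6, adjusted 0.9). That of Dync1li2 to Dync1li1 averaged -0.35 in WT and -0.34 in CCP1 cKO (difference 0.012, exact permutation p = 1, adjusted 1). The mean ratio of Pafah1b1 to the sum of Nde1 and Ndel1 was 2.07 in WT, with 2.18, 2.15 and 1.90 in replicates 1, 2 and 3, and 1.94 in CCP1 cKO, with 2.004, 1.89 and 1.92.

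The authors' isoform table gives a mean per genotype for 40 isoforms of the 10 genes, with no value per library and hence no test. Its lost decimal points could be restored, so that isoforms sum to their gene within 0.01 FPKM, for 8 genes with 26 isoforms, and Dync1i1 and Dctn1 are not given. A single isoform dominated Dync1h1 (TCONS_00012342, 97.3% of the gene in WT and 97.4% in CCP1 cKO), Nde1 (TCONS_00020631, 98.1% and 96.8%) and Ndel1 (TCONS_00009577, 92.8% and 91.9%). Pafah1b1 was split over 2 isoforms, TCONS_00009841 with 72.8 FPKM in WT against 68.6 FPKM in CCP1 cKO, and TCONS_00009840 with 13.1 FPKM and 12.8 FPKM. Dync1i2, the intermediate chain gene known for its alternative splicing, had 9 listed isoforms, of which TCONS_00030468 made up 56.5% in WT and 56.1% in CCP1 cKO and TCONS_00030474 38.7% and 37.1%. Dync1li2 was split 82.6% to 17.4% in WT and 81.3% to 18.7% in CCP1 cKO. In Dctn2, TCONS_00004835 held 42.3% in WT and 44.2% in CCP1 cKO and TCONS_00004837 33.4% and 35.0%. The structures of these isoforms were not used here, so they are not matched to named transcripts.

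Further genes of the pathway were read from 4 lists with 43 genes, of which 38 were tested. By limma none passed an adjusted p of 0.05, 4 had an unadjusted p under 0.05 (4.62% of all loci did) and the genotypes did not overlap for 8 (9.80% of all loci). Among 10 other dynactin subunits 9 were tested, 0 passed and 0 had an unadjusted p under 0.05, with a median log2 fold change of 0.035 (-0.018 over all loci tested). Actr1a, the actin-related protein of the dynactin filament, had a mean of 126.4 FPKM and Capza1, a subunit of the capping protein at its barbed end, 69.1 FPKM. Actr1b and Dctn6 had log2 fold changes of 0.085 and 0.066. Among 20 adaptors and regulators 19 were tested, with a median log2 fold change of -0.062 (-0.018 over all loci tested). The genotypes did not overlap for 4 of these genes (9.80% of all loci), each lower in CCP1 cKO. By limma 0 passed and 1 had an unadjusted p under 0.05. That gene was Rab11fip3, an adaptor that links dynein to recycling endosomes, and it read 17.7, 22.1 and 16.8 FPKM in the WT libraries, against 14.1, 15.3 and 15.6 FPKM in those of CCP1 cKO (log2 fold change -0.30, adjusted p = 0.976, limma). Nudcd3 followed with a log2 fold change of -0.18. The most abundant genes of this list were Ywhae, whose 14-3-3 protein binds phosphorylated Ndel1, with a mean of 159.0 FPKM, and Nudc, a co-chaperone of Lis1, with 51.5 FPKM. Disc1, a scaffold that binds Ndel1, stayed below 1 FPKM. Of 4 nuclear envelope linkers 3 were tested, and 0 passed or had an unadjusted p under 0.05. Sun2 had a mean of 38.6 FPKM, Syne2 17.7 FPKM with a log2 fold change of -0.15, and Sun1 17.6 FPKM with 0.10.

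The light chains, small dimers that hold the intermediate chains together, held the largest differences among the 4 lists. Of 9 listed genes 7 were tested. By limma 0 passed an adjusted p of 0.05 and 3 had an unadjusted p under 0.05 (4.62% of all loci did). The median log2 fold change was -0.039 (-0.018 over all loci tested). Dynlrb1 and Dynll1, the most abundant, had means of 138.5 and 127.8 FPKM with log2 fold changes of -0.065 and -0.066. The 3 genes with an unadjusted p under 0.05 were copies of Dynlt1 on chromosome 17, near-identical in coding sequence and so not independent counts. They are 3 of the 4 such genes over the 4 lists. Dynlt1b (6430112 to 6436295) read 12.8, 11.997 and 13.0 FPKM in the WT libraries, against 5.88, 6.96 and 4.27 FPKM in those of CCP1 cKO, with no overlap (log2 fold change -1.04, adjusted p = 0.124, limma). Dynlt1a (6310545 to 6317474) lay the other way, reading 6.90, 8.99 and 2.66 FPKM in the WT libraries, against 11.7, 17.6 and 16.7 FPKM in those of CCP1 cKO (log2 fold change 1.28, adjusted p = 0.780, limma). Dynlt1f (6646606 to 6655939), named here after its values were seen, read 15.3, 18.8 and 11.6 FPKM in the WT libraries, against 19.0, 27.7 and 22.5 FPKM in those of CCP1 cKO (log2 fold change 0.58, adjusted p = 0.954, limma). Another locus, which the table also names Dynlt1f but which lies at the annotated Dynlt1c (6601671 to 6607899), had means of 4.89 FPKM in WT against 4.72 FPKM in CCP1 cKO.

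The coding sequences of these copies are near-identical, and their untranslated parts were not compared. How fragments were shared among the loci was not tested. Over 339 coding bases in GENCODE M21, Dynlt1a, Dynlt1c and Dynlt1f are the same, and Dynlt1b differs from them at 1 base. The first 60 coding bases hold that base, given in capitals, and are printed because a fragment that misses it fits 4 genes equally well in the coding part.
Dynlt1a: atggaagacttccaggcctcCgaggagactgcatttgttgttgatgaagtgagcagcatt
Dynlt1b: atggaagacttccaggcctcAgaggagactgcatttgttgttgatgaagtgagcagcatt
Summed over the 4 loci, the level was 40.1, 44.5 and 32.1 FPKM in the WT libraries, against 42.9, 56.3 and 47.4 FPKM in those of CCP1 cKO. The genotypes overlapped in this sum, which was added after the single loci were seen (means 38.9 and 48.8 FPKM, two-sided exact permutation test, p = 0.2). Whether the genotypes carry the same alleles of this cluster was not tested.

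**Figure D4:**
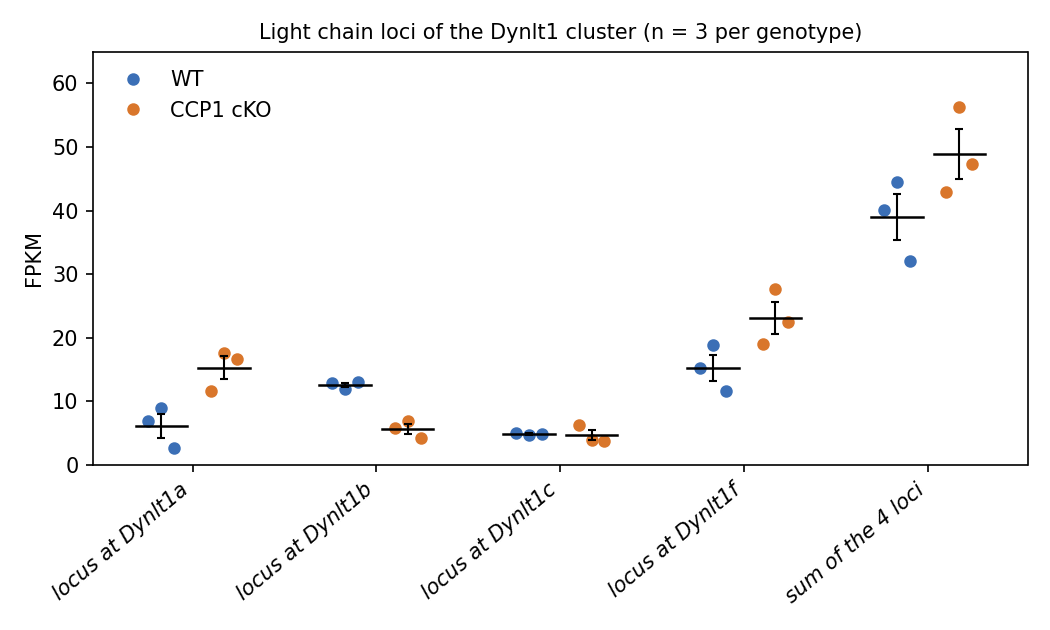
FPKM (y axis) at the 4 loci of the Dynlt1 cluster and their sum (x axis) in 3 WT (blue) and 3 CCP1 cKO (orange) libraries, with the mean (line) and SEM (bars). The locus at Dynlt1b is lower in CCP1 cKO (4.27 to 6.96 FPKM against 11.997 to 13.0 FPKM), those at Dynlt1a and Dynlt1f are higher, and the sums overlap.

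The profile of Pafah1b1 over the 6 libraries was set against 7993 other uniquely named loci averaging 5 FPKM or more, as the root mean square difference of log2(FPKM + 1) after centring each gene. The closest were Acbd5 (0.011), Ap2b1 (0.015) and Daam1 (0.016), against a standard deviation of 0.088 for Pafah1b1 itself. Dync1h1, the nearest of the other 9 genes, had 0.082 and took rank 1447. With so small a spread in Pafah1b1 these values describe the 6 libraries only.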

How the data were processed

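RNA of GFP-sorted cells was compared between 3 CCP1 cKO and 3 WT libraries, mapped by their titles. The authors aligned paired-end reads with Bowtie2 in the Tuxedo workflow on mm10, and the FPKM per library and per genotype that they deposited come from Cuffdiff (versions and annotation: not given in the sources used here), for 29606 loci. The isoform values are the authors' mean FPKM with some decimal points lost (other unit). Columns with fold changes, p-values and q-values of the authors were not used.

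Starts were counted from 1. For lists, the longest locus of a name was taken, and loci with several names, or several loci of a name at the same place, were left out. Among the markers this left out Dlx2, Hes5, Hba-a1 and Alas2, and 1 further marker is not reported here. limma 3.58.1 in R 4.3.3 (lmFit, eBayes with trend) was fitted to log2(FPKM + 1) of the 13200 loci averaging 1 FPKM or more. P-values were adjusted by Benjamini-Hochberg across these loci, with 0.05 as the limit, and the procedure was tested on simulated data. Exact tests used SciPy 1.17.1 in Python 3.11.15. Positions, strand and coding sequences came from GENCODE M21.

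The members and lists were chosen with earlier results of these data known. Named genes were the members, Agtpbp1, the 2 highest and the 2 with the smallest p of each list, and the 3 loci closest to Pafah1b1. Alternatives were pseudocounts of 0.1 and 0.5, a minimum average of 5 FPKM or none, equal medians, quantile normalization, no trend, the replicate number as a block, and libraries left out. Ratios of low values gave relative depth only. Counting intervals were not computed, as the absolute depth is unknown.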

Additional observations from a re-analysis of the deposited data

How the results depend on the processing

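Under 15 alternatives, 0 of the 10 genes and 0 of the tested list genes passed an adjusted p of 0.05, and the smallest adjusted p of the 10 genes was 0.823. The number of loci called over the table was 12, and lay between 4 and 16 when libraries were left out, the 4 being without CCP1 cKO replicate 3. The 150 log2 fold changes of the 10 genes under these alternatives lay between -0.13 and 0.13, and 20 of them had the opposite sign to the value reported. With equal medians the sign turned for Ndel1 (0.0022), Dctn1 (0.015), Dctn2 (0.012) and Capza1 (0.0029), and with quantile normalization for Dync1i2 (-0.036). With libraries left out, signs turned within these ranges: Ndel1 -0.051 to 0.0051, Nde1 -0.019 to 0.097, Dync1h1 -0.13 to 0.043, Dync1i1 -0.036 to 0.13, Dync1i2 -0.065 to 0.068, Dync1li1 -0.037 to 0.087, Dctn1 -0.048 to 0.083, Dctn2 -0.025 to 0.0070, Dynll1 -0.19 to 0.017, Dctn6 -0.030 to 0.13, Capza1 -0.088 to 0.034, Nudc -0.028 to 0.097, Ywhae -0.22 to 0.0056 and Sun2 -0.00084 to 0.11. The differences of paralogs within libraries kept their sign. With single libraries left out they lay at -0.21 to -0.18 for Ndel1 - Nde1, 4.24 to 4.28 for Dync1i2 - Dync1i1 and -0.38 to -0.32 for Dync1li2 - Dync1li1, with p = 0.0625 by the exact test, the smallest that 5 libraries allow. With pseudocounts of 0.1 and 0.5 the difference Dync1i2 - Dync1i1 was 4.47 and 4.37, and those of the other pairs stayed within the ranges given. The difference between genotypes in the ratio of Dync1li2 to Dync1li1 ran from -0.071 to 0.083. For Dynlt1b the adjusted p lay between 0.0889 and 0.649 (limma), and for Dynlt1a between 0.543 and 1. Same-numbered libraries of the genotypes deviated together with correlations of 0.32, 0.11 and 0.036 across loci. Those of libraries with different numbers lay between -0.26 and 0.17. The numbers were not taken to pair the samples, although the 0.32 of replicate 1 was the highest of these values. With the replicate block 895 loci had an unadjusted p under 0.05 by limma, against 610 without it. With this block 16 loci and 0 of the 10 genes were called.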
